A study of Homo sapiens with 3 samples.

Results

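To examine the transcriptional output of RAS-ERK signalling in irradiated bladder cancer cells, 10 feedback and target genes of the pathway were followed in the RNA-seq data of T24 cells, a human bladder carcinoma line that carries a mutant HRAS. The genes DUSP1, DUSP4, DUSP5, DUSP6, SPRY2, SPRY4, SPRED1, ETV4, ETV5 and PHLDA1 were taken by symbol, and all 10 were found among the 58381 genes of the count table. There was 1 library for each of 3 conditions: T24 cells labelled as control with an empty treatment (Ctrl), control cells exposed to radiation (RT), and irradiated cells with a lentiviral shRNA against HDAC6 (RT + shHDAC6). The labels give 10 Gy for the irradiation and describe a pLKO.1 control vector with puromycin selection, whereas the text of the study also calls the comparator parental cells. The time between irradiation and RNA extraction is not given in the sources used here. An unirradiated knockdown library was not analysed here, so that the knockdown is compared only between irradiated cells. With 1 library per condition and 1 shRNA, the spread between cultures is not known, no p-value can be given, and every interval below covers counting error only.

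The libraries held 35424086 to 41811165 counts, and every one of the 10 genes had at least 288 counts in each. Ratios between libraries were taken after scaling by the trimmed mean of M-values (TMM), with counts of 0 set to 0.5. The choice of scaling matters: relative to library totals, TMM shifts every log2 ratio of RT versus Ctrl by 0.22, of RT + shHDAC6 versus RT by -0.084 and of RT + shHDAC6 versus Ctrl by 0.13, and values with library totals are therefore added where they bear on a result. HDAC6, the target of the shRNA, had 3098 counts (Ctrl), 2383 (RT) and 2170 (RT + shHDAC6), and its level in the knockdown library was 87.2% of that in RT (log2 ratio -0.20, interval -0.28 to -0.11, and -0.11 with library totals). Among genes with at least 500 counts 22.9% had a lower ratio, so the counts show only a small reduction of HDAC6 RNA. The study measured the knockdown by qPCR and Western blotting. It reports lower HDAC6 protein in the knockdown cells, and a stronger inhibition of HDAC6 mRNA than with the drug panobinostat. Those data were not examined here. Of 15 urothelial and epithelial markers, 11 or 12 had at least 10 counts per library, and the uroplakins UPK1B, UPK2 and UPK3A had at most 3. Genes listed as markers of other cell types were also seen in this cell line, and none of them was at 0. Which cells these reads came from was not tested. Summed TMM-scaled counts per 1000000 scaled reads (CPM) of 4 fibroblast genes were 149 (Ctrl), 101 (RT) and 118 (RT + shHDAC6), those of 3 endothelial genes 23.1, 14.5 and 19.2, and those of 5 leukocyte genes at most 3.97. The fibroblast and endothelial sums were thus lowest in RT, as most of the 10 genes were. So was the sum of 4 mesenchymal genes, at 3093 (Ctrl), 2683 (RT) and 3087 (RT + shHDAC6) CPM. In contrast, the urothelial and epithelial sum was highest in RT, at 416.2 (Ctrl), 493.5 (RT) and 391.0 (RT + shHDAC6) CPM. KRT18 and KRT7 made up 249.3 and 114.9 CPM of this sum in RT, and 10 of the 12 markers tested were lower in RT than in Ctrl. The share of mitochondrially encoded counts was 3.75% (Ctrl), 6.09% (RT) and 5.51% (RT + shHDAC6).

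Growth factor receptors and mutant RAS proteins activate the kinases RAF, MEK and ERK in turn, and active ERK phosphorylates transcription factors that switch on early target genes. Several of these targets feed back on the pathway. The dual-specificity phosphatases (DUSPs) remove the activating phosphates from MAP kinases, Sprouty and SPRED proteins restrain signalling at the level of RAS and RAF, and the ETS factors ETV4 and ETV5 carry the signal to further genes. Since their transcripts follow ERK activity in many tumour cells, such genes are widely used as a readout of the pathway.

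RefSeq promoter windows (GRCh38.p14) were at hand for 6 of the 10 genes, namely DUSP1, DUSP6, SPRY2, SPRY4, SPRED1 and PHLDA1. The 250 bases before each start were searched on both strands for the cyclic AMP response element TGACGTCA, the AP-1 site TGANTCA, the ETS site CCGGAA, the EGR site GCGTGGGCG and the CArG box bound by serum response factor. Among 27305 promoters (the first listed window of each gene) these were present in 1.77%, 6.6%, 14.8%, 0.71% and 1.14%, respectively. SPRY2 had 3 windows, and the one nearest the 5′ end of its gene model was searched. The 3 windows with a match are printed 5′ to 3′ on the strand of the gene because they show where the matched letters lie. A match describes the window only, and no link to the RNA levels was tested. Capitals mark the match.
DUSP1, chr5:172771196-172771445, minus strand: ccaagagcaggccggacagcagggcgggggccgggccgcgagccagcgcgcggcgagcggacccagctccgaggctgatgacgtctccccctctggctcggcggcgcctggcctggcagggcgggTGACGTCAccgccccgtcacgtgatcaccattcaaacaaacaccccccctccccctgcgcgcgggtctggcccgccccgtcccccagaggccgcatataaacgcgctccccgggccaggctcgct
SPRY2, chr13:80341127-80341376, minus strand: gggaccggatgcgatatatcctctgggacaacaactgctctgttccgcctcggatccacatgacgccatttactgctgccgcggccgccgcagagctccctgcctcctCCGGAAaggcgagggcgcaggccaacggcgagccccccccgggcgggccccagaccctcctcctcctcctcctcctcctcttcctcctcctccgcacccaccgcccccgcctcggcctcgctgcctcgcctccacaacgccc
PHLDA1, chr12:76031777-76032026, minus strand: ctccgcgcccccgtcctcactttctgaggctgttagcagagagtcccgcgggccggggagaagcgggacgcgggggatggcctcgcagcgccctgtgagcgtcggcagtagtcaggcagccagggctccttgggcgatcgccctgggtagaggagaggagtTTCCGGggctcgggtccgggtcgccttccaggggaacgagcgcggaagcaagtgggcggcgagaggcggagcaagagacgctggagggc
The DUSP1 window held the cyclic AMP response element at 125 to 118 bases before the start and no ETS site. SPRY2 had an ETS site in the same orientation as the gene, 142 to 137 bases before the start, and PHLDA1 had an ETS site on the opposite strand, 89 to 84 bases before the start. None of these letter strings was found in the windows of DUSP6, SPRY4 and SPRED1, which says nothing about factors that bind elsewhere or to other letters. The SPRY4 window, chr5:142324248-142324497 on the minus strand, lies inside the gene model, whose 5′ end is at 142326455. It stands before an internal start, and the bases before that 5′ end were not searched. No motif matches overlapped.

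The RT library held less RNA of most of these genes than Ctrl. In RT, 9 of the 10 genes had a lower level than in Ctrl, whereas 54.2% of all 20267 genes tested were lower. DUSP1 was the exception, and with median-of-ratios scaling DUSP6 was higher as well (8 of 10 lower). The median log2 ratio of the 10 genes was -0.45 (range -0.83 to 0.30), beside -0.062 for all genes tested, and it was -0.67 beside -0.28 with library totals. The counting interval lay below 0 for 8 genes and above 0 for DUSP1, and it included 0 for DUSP6. None of the 10 genes was at least 2-fold lower or higher (with library totals DUSP4 was lower), against a background of 9.17% and 4.81% of all genes. At 1.5-fold, DUSP4 alone was lower and none was higher, where the background was 20.5% and 14.5%. With library totals, 523 of all genes were at least 2-fold higher and 2845 lower, in place of 975 and 1858, and 13880 were lower by any amount. Low counts widen the spread of ratios over all genes, and of 9436 well-counted genes (500 counts or more in either library) 6.13% were at least 1.5-fold lower. Most genes listed as cell type markers moved the same way. All 4 fibroblast and all 3 endothelial genes were lower in RT, with median log2 ratios of -0.58 and -0.64. Of the 12 urothelial and epithelial markers tested 10 were lower (median -0.47), while KRT7 (0.56) and KRT18 (0.62) were higher. Of 4 mesenchymal genes 3 were lower (median -0.25), while CDH2 was higher (0.78). The part of the markers in the result was not tested. In bulk RNA, fewer cells that express a gene and less RNA of it per cell cannot be told apart.

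The irradiated knockdown library held more RNA of most of these genes than RT. In RT + shHDAC6, 9 of the 10 genes were higher than in RT, compared with 49.6% of 19013 genes tested (11493 genes with library totals), and DUSP1 was again the exception, while SPRED1 was also marginally lower with median-of-ratios scaling (8 of 10 higher). The median log2 ratio was 0.31 (range -0.11 to 0.94), beside -0.0032 for all genes, and 0.40 beside 0.081 with library totals. The counting interval lay above 0 for 7 genes and below 0 for DUSP1, and for SPRED1 and ETV5 it included 0. No gene reached 2-fold (with library totals DUSP5 did), against a background of 4.35% higher and 4.78% lower. At 1.5-fold, 3 of the 10 were higher (DUSP4, DUSP5 and SPRY4) and 0 were lower, where the background was 10.1% and 9.93%. Of 8922 well-counted genes, 1.5% were at least 1.5-fold higher. Here too most of the markers moved with the 10 genes. Of the fibroblast markers 3 of 4 were higher, of the endothelial 3 of 3 and of the urothelial and epithelial 7 of 11. The median log2 ratios were 0.27, 0.31 and 0.23. Of 4 mesenchymal genes 3 were higher (median 0.049). Some lower markers had larger ratios: KRT7 (-2.75), GATA3 (-1.07), CDH2 (-1.04), PPARG (-0.95) and PDGFRB (-0.54). The part of the markers in the result was not tested. The RT library enters both comparisons, so that a deviation of this library alone would lower a gene in the former and raise it in the latter; the difference between RT + shHDAC6 and Ctrl does not involve it.

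**Figure D1:**
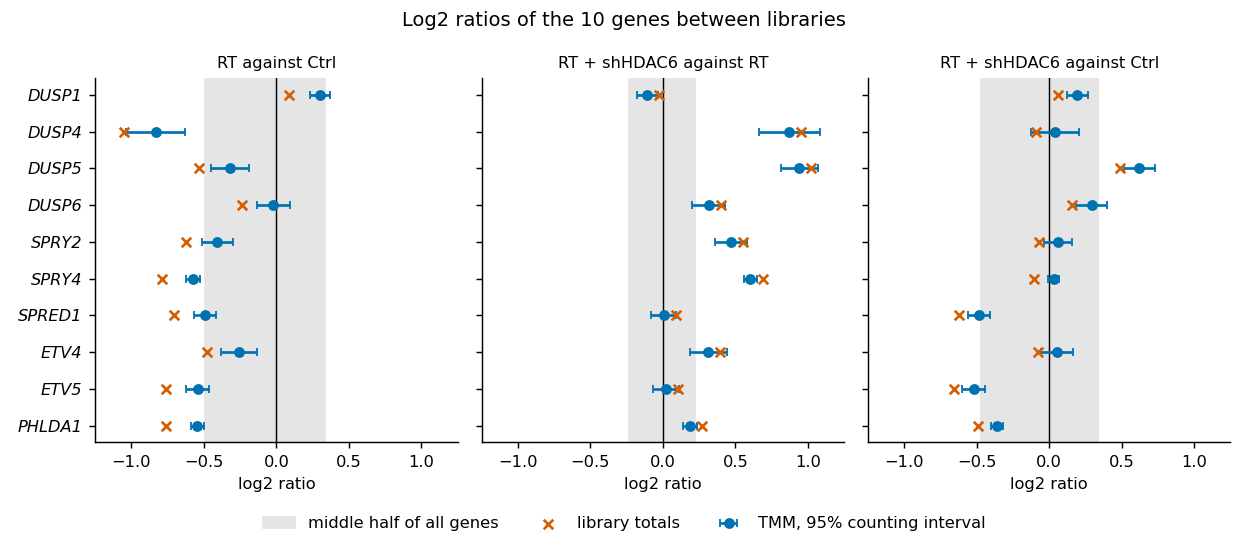
Log2 ratios of the 10 genes (x axis) for RT versus Ctrl, RT + shHDAC6 versus RT and RT + shHDAC6 versus Ctrl, with 1 library per condition. Circles are TMM-scaled ratios with 95% counting intervals, crosses the ratios with library totals, and the grey band spans the 25th to the 75th percentile of all genes tested. With TMM, DUSP1 lies on the other side of 0 from the remaining genes in the left and middle panels, while median-of-ratios scaling (not drawn) moves DUSP6 in RT versus Ctrl and SPRED1 in RT + shHDAC6 versus RT across 0.

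Against Ctrl, the RT + shHDAC6 library gave a mixed picture. The median log2 ratio of the 10 genes was 0.047, beside -0.056 for all genes tested, and with library totals it was -0.087 beside -0.19. Of the 10 genes 7 were higher than in Ctrl, where 46.2% of 20374 genes were. With library totals 3 were higher and 7 lower, beside 7543 higher and 12831 lower of all 20374 genes. None was past 2-fold, against a background of 4.91% higher and 10.5% lower, and at 1.5-fold DUSP5 was higher and none was lower, where the background was 13.9% and 20.5%. By their counting intervals, DUSP1, DUSP5 and DUSP6 lay above Ctrl, SPRED1, ETV5 and PHLDA1 lay below it, and the intervals of DUSP4, SPRY2, SPRY4 and ETV4 included 0. The ratios of those 4 genes stayed between -0.10 and 0.11 under every scaling that was run.

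**Figure D2:**
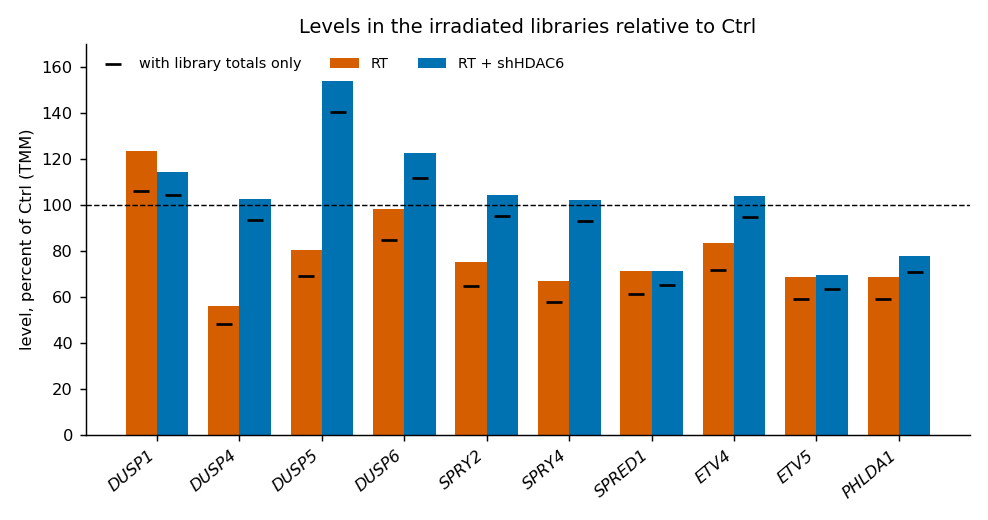
TMM-scaled level of each gene in RT and in RT + shHDAC6 as a percentage of its level in Ctrl (dashed line at 100), 1 library per bar, with black ticks for scaling by library totals. SPRED1 and ETV5 stand between 68.7% and 71.4% in both irradiated libraries, while DUSP4 goes from 56.2% in RT to 103% in RT + shHDAC6.

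The 4 MAP kinase phosphatases differed from each other most. DUSP1 (ENSG00000120129, chromosome 5, 172768096 to 172771195, 4 exons) encodes a nuclear phosphatase that acts on p38 and JNK as well as ERK and is induced by many stresses. It had 3406 counts (Ctrl), 3105 (RT) and 3010 (RT + shHDAC6). Scaled, these were 75.1, 92.6 and 86.0 CPM, so that both irradiated libraries lay above Ctrl with TMM; with library totals the log2 ratio of RT + shHDAC6 versus Ctrl was 0.061 in place of 0.19, within counting error of 0. The log2 ratio was 0.30 (interval 0.23 to 0.37) for RT versus Ctrl and -0.11 (interval -0.18 to -0.034) for RT + shHDAC6 versus RT, and with library totals these values were 0.084 and -0.023, the latter within counting error of 0. Among the genes with at least 500 counts, 66.9% had a lower ratio than DUSP1 in RT versus Ctrl, and this rank does not depend on the scaling.

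DUSP4 (ENSG00000120875, chromosome 8, 29333064 to 29350684, 4 exons), a nuclear phosphatase induced by ERK, had the lowest ratio of the 10 genes in RT. It was represented by 693 counts (Ctrl), 288 (RT) and 550 (RT + shHDAC6), or 15.3, 8.59 and 15.7 CPM. The RT library was thus low, and the other two were alike. The log2 ratio was -0.83 (interval -1.04 to -0.63) for RT versus Ctrl, under which 1.95% of genes with at least 500 counts lay, and 0.87 (interval 0.66 to 1.08) for RT + shHDAC6 versus RT, under which 99.3% lay. Against Ctrl, RT + shHDAC6 had a log2 ratio of 0.040 (interval -0.12 to 0.20).

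DUSP5 (ENSG00000138166, chromosome 10, 110497907 to 110511533, 4 exons), which binds and dephosphorylates ERK in the nucleus, had the highest ratio of the 10 genes in RT + shHDAC6 versus RT. It had 1267 counts (Ctrl), 752 (RT) and 1506 (RT + shHDAC6), corresponding to 27.9, 22.4 and 43.0 CPM. Unlike DUSP4, it went past its Ctrl level: the log2 ratio was -0.32 (interval -0.45 to -0.19) for RT versus Ctrl, 0.94 (interval 0.81 to 1.07) for RT + shHDAC6 versus RT and 0.62 (interval 0.51 to 0.73) for RT + shHDAC6 versus Ctrl. With library totals the middle value was 1.02, and 99.4% of genes with at least 500 counts had a lower ratio.

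DUSP6 (ENSG00000139318, chromosome 12, 89347235 to 89352501, 3 exons) encodes the cytoplasmic phosphatase specific to ERK. It had 1472 counts (Ctrl), 1072 (RT) and 1393 (RT + shHDAC6), or 32.5, 32.0 and 39.8 CPM. Ctrl and RT did not differ beyond counting error with TMM (log2 ratio -0.022, interval -0.14 to 0.092), but library totals gave -0.24 and median-of-ratios scaling 0.036. For RT + shHDAC6 versus RT the log2 ratio was 0.32 (interval 0.20 to 0.43). A long non-coding RNA on the other strand, ENSG00000274021, covers 28.6% of its exon length and had 2 or 3 counts per library. Whether reads in the shared part were left out of the DUSP6 count is not known, so its level per length may be too low. Of 6361 non-member genes with at least 1000 counts in every library, the nearest to DUSP6 by their pair of log2 ratios versus Ctrl were FAM32A, DCAF12 and UPF3B, at distances of 0.013, 0.022 and 0.024, and 79 genes lay within 0.1. This likeness rests on 3 libraries.

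Ratios of counts between genes of the same library do not depend on scaling, and they showed the same divergence. For each DUSP1 count there were 0.203 (Ctrl), 0.0928 (RT) and 0.183 (RT + shHDAC6) DUSP4 counts. For DUSP5 the corresponding values were 0.372, 0.242 and 0.5. From RT to RT + shHDAC6 the ratio to DUSP1 changed 1.97-fold for DUSP4 (log2 0.98, interval 0.76 to 1.20), 2.07-fold for DUSP5 (log2 1.05, interval 0.90 to 1.19) and 1.34-fold for DUSP6 (log2 0.42, interval 0.29 to 0.56). Per kilobase of exon, DUSP1 made up 63.4%, 71.5% and 59.2% of the summed level of the 4 phosphatases in Ctrl, RT and RT + shHDAC6, and DUSP5 made up 18.7%, 13.8% and 23.5%. DUSP4 had the smallest share, at 3.57%, 1.84% and 2.99%.

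Sprouty and SPRED proteins are membrane-associated inhibitors of receptor signalling to RAS. SPRY4 (ENSG00000187678, chromosome 5, 142310427 to 142326455, 2 exons) was among the best counted of the genes, with 11382 counts (Ctrl), 5653 (RT) and 8974 (RT + shHDAC6), or 251, 169 and 256 CPM. The RT library was lowest, and the other libraries were nearly equal. The log2 ratio was -0.57 (interval -0.62 to -0.53) for RT versus Ctrl, 0.60 (interval 0.56 to 0.65) for RT + shHDAC6 versus RT and 0.030 (interval -0.0099 to 0.070) for RT + shHDAC6 versus Ctrl. In the middle comparison 98.6% of genes with at least 500 counts had a lower ratio.

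SPRY2 (ENSG00000136158, chromosome 13, 80335976 to 80341126, 2 exons) was also lowest in RT. It had 1992 (Ctrl), 1110 (RT) and 1606 counts (RT + shHDAC6), which is 43.9, 33.1 and 45.9 CPM. Its log2 ratio was -0.41 (interval -0.52 to -0.30) for RT versus Ctrl and 0.47 (interval 0.36 to 0.58) for RT + shHDAC6 versus RT. SPRED1 (ENSG00000166068, chromosome 15, 38252836 to 38357249, 7 exons), which recruits neurofibromin to restrain RAS, was low in both irradiated libraries. Its counts were 4004, 2107 and 2208, or 88.3, 62.8 and 63.1 CPM. The log2 ratio was -0.49 (interval -0.57 to -0.41) for RT versus Ctrl, 0.0055 (interval -0.081 to 0.092) for RT + shHDAC6 versus RT and -0.49 (interval -0.56 to -0.41) for RT + shHDAC6 versus Ctrl.

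Relative to SPRED1, neither Sprouty gene changed beyond counting error between Ctrl and RT, but both were higher relative to it in the knockdown library than in RT. The number of SPRY4 counts for each SPRED1 count was 2.84 (Ctrl), 2.68 (RT) and 4.06 (RT + shHDAC6). The ratio changed by -0.083 on the log2 scale (interval -0.17 to 0.0055) from Ctrl to RT, and by 0.60 (interval 0.50 to 0.70) from RT to RT + shHDAC6. For SPRY2 the corresponding changes were 0.083 (interval -0.048 to 0.21) and 0.47 (interval 0.33 to 0.61).

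ETV4 and ETV5 are ETS transcription factors of the PEA3 group. ETV4 (ENSG00000175832, chromosome 17, 43527844 to 43579620, 13 exons) had 1447 counts (Ctrl), 895 (RT) and 1160 (RT + shHDAC6), or 31.9, 26.7 and 33.1 CPM. RT was lowest, with a log2 ratio of -0.26 (interval -0.38 to -0.14) versus Ctrl, and RT + shHDAC6 was 0.31 (interval 0.19 to 0.44) above RT. ETV5 (ENSG00000244405, chromosome 3, 186046314 to 186110318, 13 exons) had 3730, 1894 and 2007 counts, or 82.3, 56.5 and 57.3 CPM. It was lower in both irradiated libraries, with log2 ratios of -0.54 (interval -0.62 to -0.46) for RT and -0.52 (interval -0.60 to -0.44) for RT + shHDAC6 versus Ctrl, and RT and RT + shHDAC6 differed by 0.022 (interval -0.070 to 0.11). The number of ETV4 counts for each ETV5 count was 0.388, 0.473 and 0.578. This ratio increased by 0.28 (log2, interval 0.14 to 0.43) from Ctrl to RT and by 0.29 (interval 0.14 to 0.45) from RT to the knockdown library. Exons of other genes, DHX8 for ETV4 and DGKG for ETV5, cover 1.94% and 2.84% of the exon length.

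PHLDA1 (ENSG00000139289, chromosome 12, 76025447 to 76031776, 2 exons) encodes a pleckstrin homology-like protein whose RNA is induced by ERK signalling. It had the most counts of the 10 genes in Ctrl and RT, with 12187 (Ctrl), 6180 (RT) and 7339 (RT + shHDAC6), or 269, 184 and 210 CPM. RT + shHDAC6 lay between RT and Ctrl: the log2 ratio was -0.54 (interval -0.59 to -0.50) for RT versus Ctrl, 0.19 (interval 0.14 to 0.23) for RT + shHDAC6 versus RT and -0.36 (interval -0.40 to -0.32) for RT + shHDAC6 versus Ctrl. An antisense transcript, PHLDA1-AS1, covers 9.35% of its exon length and had 15, 11 and 4 counts.

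**Figure D3:**
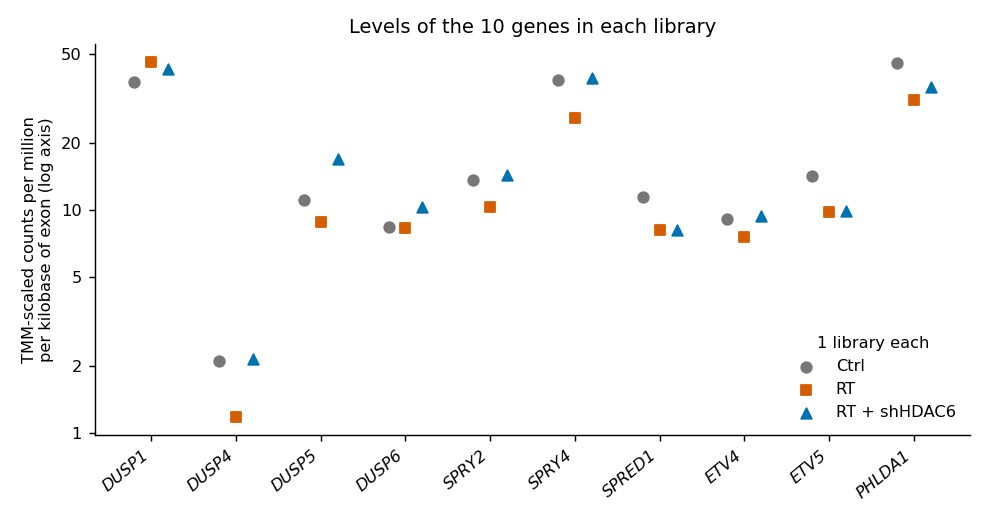
Level per length, in TMM-scaled CPM per kilobase of exon (log axis), of the 10 genes, with 1 point per library. PHLDA1, SPRY4 and DUSP1 stand highest and DUSP4 lowest in all 3 libraries, and RT has the lowest point for every gene but DUSP1, although with median-of-ratios scaling DUSP6 is lowest in Ctrl and SPRED1 in RT + shHDAC6.

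Compared per kilobase of exon, the levels in Ctrl ran from 45.5 CPM for PHLDA1, 38.3 for SPRY4 and 37.3 for DUSP1, through 14.3 for ETV5, 13.7 for SPRY2, 11.4 for SPRED1, 11.02 for DUSP5, 9.08 for ETV4 and 8.41 for DUSP6, to 2.10 for DUSP4. In RT, DUSP1 took the highest place at 46.0 CPM, followed by PHLDA1 at 31.2 and SPRY4 at 25.7. In RT + shHDAC6, DUSP1, SPRY4 and PHLDA1 stood at 42.7, 39.1 and 35.5, and DUSP5 had moved to the fourth place at 17.0. Whether neighbours in this order differ beyond the spread between cultures cannot be told from 1 library per condition.

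The genes listed for the RAS-ERK cascade were mostly lower in RT and close to their RT level in the knockdown library. The list of 28 holds RAS proteins, factors upstream of RAS, scaffolds, and the kinases from RAF to ERK and its kinase substrates. It also holds inhibitors of RAS or RAF. By log2 ratio of RT versus Ctrl, NF1 (-0.37), RASA1 (-0.47), RASA2 (-0.20) and PEBP1 (-0.16) were lower and LZTR1 (0.38) was higher. In this comparison 54.2% of all genes were lower, 9.17% at least 2-fold lower and 4.81% at least 2-fold higher. Of the 28 listed genes, 22 were lower (median log2 ratio -0.26), with 1 at least 2-fold lower and 0 at least 2-fold higher. With library totals 26 were lower, 4 of them at least 2-fold, and the median was -0.48. Of all 20267 genes, 13880 were then lower, 2845 of them at least 2-fold, and the median was -0.28. Between RT + shHDAC6 and RT the median was 0.036, with 17 higher, 11 lower and 0 past 2-fold (median 0.12, 23 higher and 5 lower with library totals). Over all genes 49.6% were higher, and 4.35% and 4.78% were past 2-fold up and down. With library totals 11493 of 19013 genes were higher, with a median of 0.081. HRAS, the mutant RAS gene of T24 cells, had 2858 (Ctrl), 1696 (RT) and 1826 counts (RT + shHDAC6). Its log2 ratio was -0.32 for RT versus Ctrl and 0.044 for RT + shHDAC6 versus RT. NRAS, a further RAS gene, had 16602, 7585 and 7543 counts, with log2 ratios of -0.69 and -0.070. RRAS, a RAS-related GTPase, was the gene past 2-fold in RT (526 and 171 counts, log2 ratio -1.19).

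Of 18 other genes known to be induced by ERK, 17 had at least 10 counts in a library. Between RT + shHDAC6 and RT, 14 of the 17 were higher and 3 lower, with a median log2 ratio of 0.32, 2 at least 2-fold higher and 1 at least 2-fold lower; over all genes 49.6% were higher, and 4.35% and 4.78% were past 2-fold up and down. The numbers of higher and lower genes in the list were the same under each of the 5 scalings. In RT versus Ctrl they were divided, with 8 higher and 9 lower, 2 past 2-fold in each direction, and a median of -0.42, beside 4.81% and 9.17% of all genes past 2-fold up and down. With library totals 6 were higher and 11 lower, 1 and 4 of them past 2-fold, and the median was -0.63. Of all 20267 genes, 6387 were then higher and 13880 lower, 523 and 2845 of them past 2-fold, with a median of -0.28. EGR1, an immediate early transcription factor, had 1999 counts (Ctrl), 592 (RT) and 1272 (RT + shHDAC6), with log2 ratios of -1.32 for RT versus Ctrl and 1.04 for RT + shHDAC6 versus RT. SPRED3, a relative of SPRED1, had 474, 144 and 237 counts and log2 ratios of -1.28 and 0.66. In both, RT was the lowest library.

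Others went their own way. FOSL1, an AP-1 subunit, had 4843, 10288 and 13416 counts, so that it was higher in RT than in Ctrl by 1.52 on the log2 scale and higher again in RT + shHDAC6 by 0.32. EPHA2 (0.97 and 0.39), DUSP7 (0.59 and 0.32), MYC (0.52 and 0.16) and CCND1 (0.39 and 0.26) were also higher at both steps. PHLDA2, a relative of PHLDA1, had 315, 234 and 672 counts and log2 ratios of 0.0063 and 1.46. IER3, an early gene linked to survival, had 3510, 1585 and 656 counts and was lower at each step (-0.71 and -1.33). DUSP2 was also past 2-fold in RT, on 13 and 22 counts (log2 ratio 1.19, interval 0.14 to 2.31), but not with library totals (0.98).

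Among 9 transcription factors and repressors under ERK, the median log2 ratio was -0.045 in RT versus Ctrl (-0.26 with library totals and 0.014 with median-of-ratios scaling) and 0.097 for RT + shHDAC6 versus RT. The count past 2-fold was 0 in the former, beside 4.81% of all genes higher and 9.17% lower. ETS2 had 4865, 3488 and 1283 counts and was the only gene of the 9 past 2-fold in the knockdown library (log2 ratio to RT -1.505). In that comparison 4.35% of all genes were at least 2-fold higher and 4.78% lower. The phosphatases of p38 and JNK, DUSP8, DUSP10 and DUSP16, had log2 ratios of -0.35 (interval -0.86 to 0.15), 0.084 (interval -0.10 to 0.27) and -0.24 (interval -0.35 to -0.12) for RT + shHDAC6 versus RT. For RT versus Ctrl they were 0.89 (interval 0.38 to 1.42), 0.029 (interval -0.15 to 0.21) and -0.59 (interval -0.69 to -0.49). With library totals the latter were 0.68, -0.19 and -0.80. DUSP8 had only 56 (Ctrl), 77 (RT) and 63 (RT + shHDAC6) counts.

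**Figure D4:**
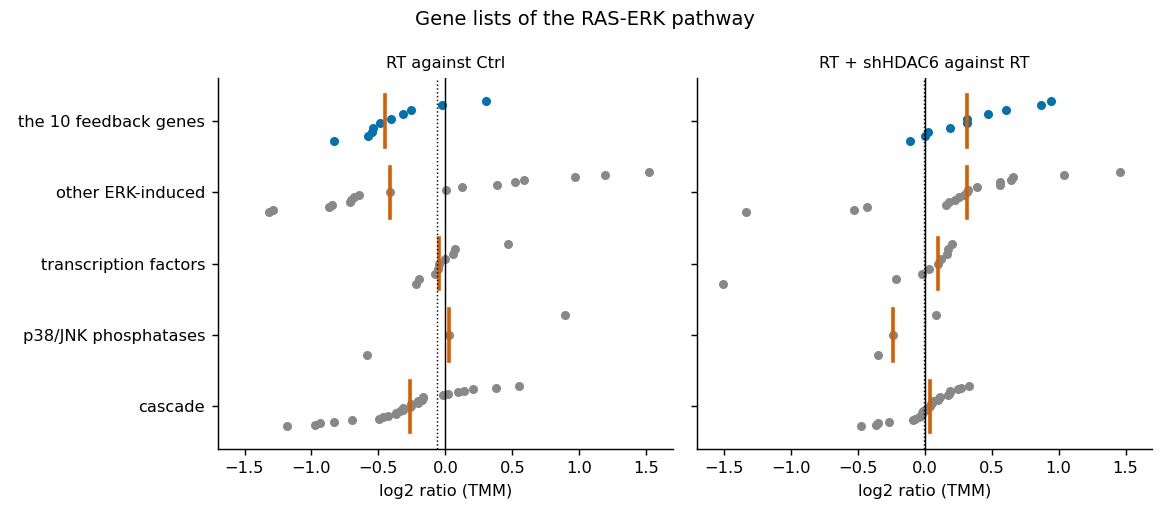
TMM-scaled log2 ratios (x axis) of the 10 feedback genes and of 4 other gene lists of the pathway for RT versus Ctrl and RT + shHDAC6 versus RT. Each point is a gene with at least 10 counts in either library, orange bars are list medians, and the dotted line is the median of all genes tested; the feedback genes and the other ERK-induced genes have medians of 0.31 and 0.32 in the right panel, and the cascade 0.036.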

How the data were processed

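RNA-seq was available for 3 T24 libraries, 1 per condition. Per the labels and the methods of the study, the authors used cutadapt for trimming, STAR for alignment to GRCh38 (2.6.1a in the submitters' processing notes, another version in the methods) and featureCounts with the GENCODE release 28 annotation, and the deposited values are raw read counts. The library kit also differs between both sources, and the strand setting is not given. Reads in exons that overlap another gene may therefore have been left out or assigned to either gene. All 3 columns were used. Of 58381 identifiers, 57799 (99.0%) matched GENCODE release 44, which gave symbols, GRCh38 positions and exon lengths.

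Effective library sizes were computed with TMM in edgeR 4.0.16 (R 4.3.3). Genes with at least 10 counts in either library were compared. Log2 ratios carry 95% exact binomial (Clopper-Pearson) intervals of the counts (scipy 1.17.1), and changes of ratios between genes carry normal 95% intervals on the log scale. The intervals cover counting error only, since each condition has 1 library. Reads lack molecular identifiers, so duplicate reads are counted and the intervals may be too narrow. A floor of 3 counts corresponds to 0.0662 to 0.0894 CPM (TMM-scaled counts per 1000000 reads). No test is possible with 1 library per condition. A call means at least 2-fold, in place of the NOISeq probability of the study.

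The members and lists were chosen with earlier results of these data known. Named genes were the 10 members, HDAC6, HRAS, NRAS, list genes past 2-fold in RT versus Ctrl or in RT + shHDAC6 versus RT with at least 100 counts (up to 12), and the 3 genes nearest to DUSP6. One further gene of this rule is not reported here. UPK1B, UPK2, UPK3A, KRT7, KRT18, GATA3, PPARG, PDGFRB, CDH2, DUSP2, DUSP8, DUSP10, DUSP16 and genes that overlap a member were named after their values were seen. So were NF1, RASA1, RASA2, PEBP1, LZTR1, EPHA2, DUSP7, MYC and CCND1. Alternatives were other scalings (DESeq2 1.42.0 size factors among them), zeros, filters and folds.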

Additional observations from a re-analysis of the deposited data

How the results depend on the processing

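No member had a count of 0 or fewer than 100 counts, so the other replacement of zeros and the other filters changed no value of the 10 genes. With library totals, 1 member was past 2-fold for RT against Ctrl (DUSP4, lower) and 1 for RT + shHDAC6 against RT (DUSP5, higher), where TMM gave 0 and 0. Over all genes, library totals put 2845 of 20267 at least 2-fold lower in the former and 999 of 19013 at least 2-fold higher in the latter. The median log2 ratio of the members was then -0.67 for RT against Ctrl in place of -0.45, and for RT + shHDAC6 against Ctrl it changed sign, from 0.047 to -0.087. The medians of all genes tested went from -0.062 to -0.28 and from -0.056 to -0.19 in these comparisons. At 1.5-fold, the members past the threshold numbered 1 for RT against Ctrl (lower), 3 for RT + shHDAC6 against RT (higher) and 1 for RT + shHDAC6 against Ctrl (higher). The shares of all genes past it in the same directions were 20.5%, 10.1% and 13.9%. Over the 4 other scalings, 26 of 40, 37 of 40 and 29 of 40 values of single members stayed within their counting interval in these comparisons, and with library totals 10, 3 and 9 of the 10 members left it. No member ratio whose interval excluded 0 changed sign. Median-of-ratios scaling left 8 of 10 members lower in RT than Ctrl and 8 of 10 higher in the knockdown library than RT. For DUSP6 in RT against Ctrl the log2 ratio ran from -0.24 to 0.036, and for SPRED1 in RT + shHDAC6 against RT from -0.0040 to 0.089. No paired analysis was possible because each condition has 1 library. The depth limits the ratio of DUSP4, the gene with the fewest counts, to about 0.2 on either side, and it says nothing about the spread between cultures.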
